A study of Mus musculus with 9 samples.

Results

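The genes of fatty acid oxidation and ketone use were followed across 3 brain regions and 3 feeding regimens of the mouse. The set holds 32 named genes of 16358 genes measured, and its members were found as the array probes whose RefSeq identifier maps to those symbols. All 32 were on the array, with 46 probes, and 31 were well above background on all 9 arrays. The exception was Ppard, a nuclear receptor that binds fatty acids, whose probe was well above background on 0 of 9 arrays and which was therefore not fitted.

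Single-colour (Cy3) Agilent arrays measured total RNA of amygdala, hypothalamus and prefrontal cortex from male wild-type C57BL/6J mice aged 8 to 9 weeks, killed at 14:00 on day 8. The AD group ate ad libitum and was the control, the RFR group was fasted and refed in alternation from day 0, and the CR group received a set share of what RFR mice had eaten. The feeding switch was made at 20:00, and the labels do not state whether the RFR mice were in a fasting or a feeding period when killed. Every region and diet is represented by 1 array (9 in all) of RNA pooled from 4 perfused mice, so no group has a replicate, and the regions of 1 diet share their mice. The labels place the prefrontal cortex slice 2.5 to 3.5 mm posterior to bregma, behind the amygdala and hypothalamus slices at 1.5 to 2.5 mm. Prefrontal cortex lies anterior to bregma in the mouse, so the tissue behind this label is open to doubt, although cortical markers were highest there.

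Fatty acids are burned in mitochondria after carnitine palmitoyltransferases have passed them through the membranes, and each turn of the cycle then shortens the chain through a dehydrogenase, a hydratase, a second dehydrogenase and a thiolase. Ketone bodies, made by the liver from fatty acids during fasting, enter the brain through monocarboxylate transporters and are turned back into acetyl-CoA by a short chain of mitochondrial enzymes. In brain, ketone bodies are a recognised fuel of neurons during fasting, and fatty acid oxidation is assigned mainly to astrocytes. PPARalpha and its coactivator PGC-1alpha are transcriptional regulators of both routes.

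Per array, 25958 to 30199 of 43379 spots (controls left out) passed the scanner's test of being well above background. All values here are log2 signal relative to the array's 75th percentile, written in the order AD, RFR, CR, and levels are compared between arrays for 1 probe, never between probes. Markers of each dissected region were at their highest summed signal in that region: 355 to 439 times the 75th percentile in hypothalamus for hypothalamic genes against 10.9 to 17.2 in amygdala and 1.43 to 2.07 in prefrontal cortex, 247 to 266 in prefrontal cortex for cortical genes against 120 to 146 and 18 to 22, and 32.1 to 40.7 in amygdala for amygdala genes against at most 13.4. The hypothalamic factor Otp was not well above background on any array. Of 7 amygdala genes, 5 were called higher in amygdala than in hypothalamus and 1, Dlk1, lower. Against prefrontal cortex 5 were called higher and 1, Rspo2, lower. The RFR arrays stood apart in 2 genes: Prl (prolactin) was -1.43, -2.04 and -1.84 on the RFR arrays of amygdala, hypothalamus and prefrontal cortex and at or below -7.16 on all others, and Gh (growth hormone) was -3.18, -3.65 and -3.75 against -6.72 or below. These are pituitary hormones.

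Regions were compared over the 3 diets with limma, at a Benjamini-Hochberg adjusted p of 0.05 over 12622 genes. In hypothalamus against prefrontal cortex, 14 of 31 members were higher, where 26.7% of all genes were, and 4 were lower, where 21.3% of all genes were. In amygdala against hypothalamus, 5 members were higher (13.5% of all genes) and 8 lower (15.9%). In amygdala against prefrontal cortex, 3 members were higher (12.1%) and 2 lower (10.2%). The median log2 difference of the members was 0.33 for hypothalamus against prefrontal cortex, beside 0.06 for all genes, and -0.28 for amygdala against hypothalamus, beside -0.06. It was 0.07 for amygdala against prefrontal cortex, beside 0.0. All 16 enzymes of the mitochondrial and peroxisomal cycle and its electron acceptors had a higher mean in hypothalamus than in prefrontal cortex. Of all genes, 54.2% did. The threshold was passed by 9 of the 16 enzymes and by none in the other direction, with a median of 0.40 over the 16. The ketone utilisation gene Oxct1, the transporter Slc16a7, Ppara and Ppargc1a differed the opposite way and were the 4 members lower in hypothalamus.

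**Figure D1:**
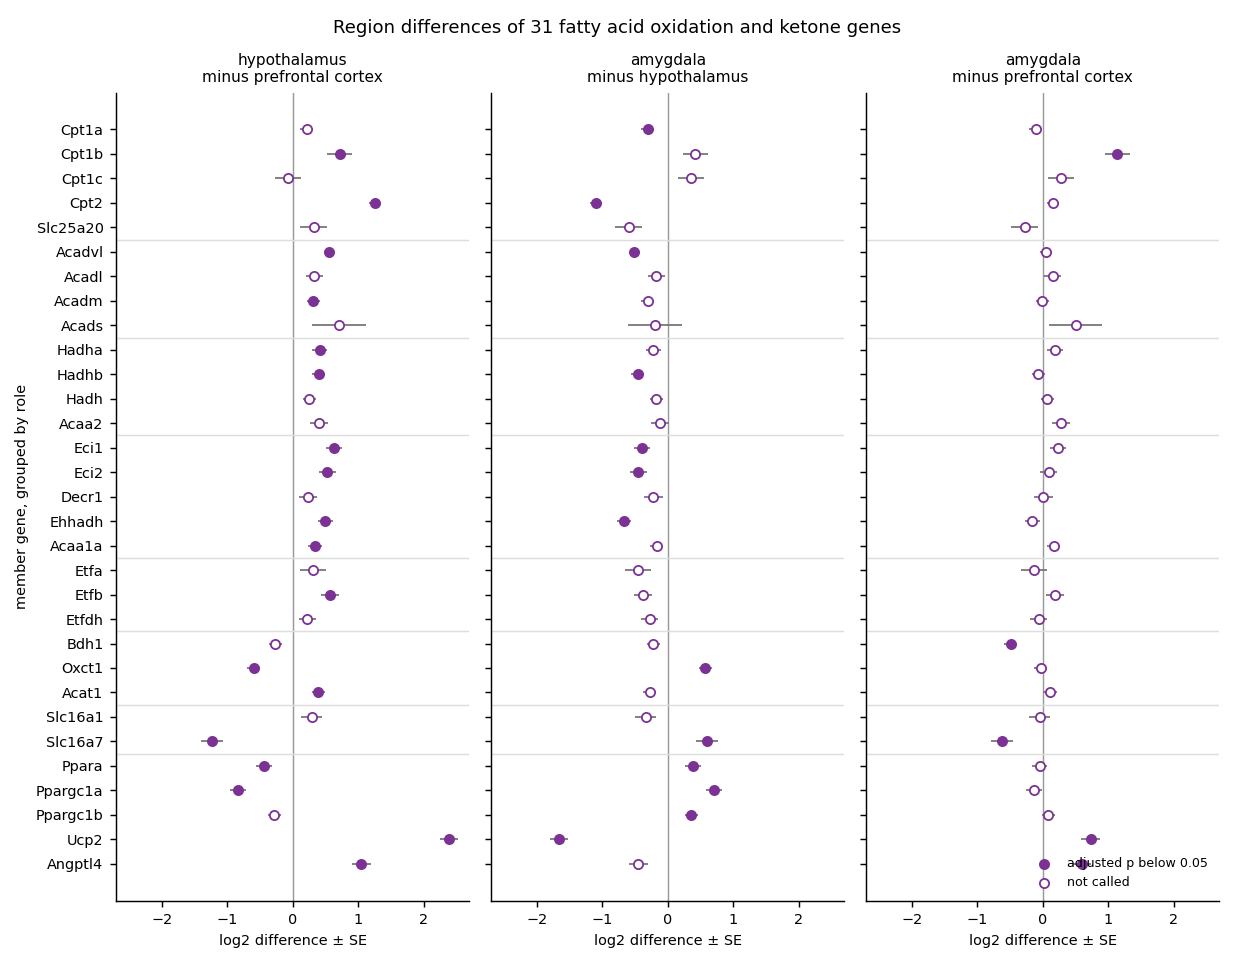
Log2 difference between regions for the 31 fitted members (points) with the standard error of the fit (bars), grouped by role; filled points passed an adjusted p of 0.05. Most enzymes lie to the right of 0 for hypothalamus minus prefrontal cortex, with Ucp2 at 2.39 and Cpt2 at 1.25, while Slc16a7 lies at -1.23 and Ppargc1a at -0.84.

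Cell type markers moved between the same regions, beside 26.7% of all genes called higher and 21.3% called lower in hypothalamus against prefrontal cortex. All 12 oligodendrocyte markers were higher in hypothalamus than in prefrontal cortex, with a summed signal, over the 11 that had a value on every array, of 139 to 188 times the 75th percentile in hypothalamus, 87.0 to 131 in amygdala and 58.0 to 89.8 in prefrontal cortex. The neuronal list summed to 147 to 163, 194 to 226 and 264 to 299 in the same order, and 6 of 10 markers were lower in hypothalamus than in prefrontal cortex. Of 11 astrocyte markers, 5 were higher and 1, Slc1a2, lower, with sums of 177 to 228, 118 to 144 and 103 to 124. Much of the gap between the hypothalamus and prefrontal cortex sums comes from 1 gene, Agt. It was at 5.79, 5.69 and 5.88 in hypothalamus and at -0.48, -0.24 and -0.32 in prefrontal cortex. The ependymal and tanycyte list was higher as well (5 of 5 higher, 13.5 to 16.6 against 1.59 to 1.88). So was the choroid plexus list (7 of 8 higher, 7.09 to 8.13 against 0.391 to 0.441, with Otx2 not well above background). Of the genes called, Dnah11 was well above background on 3 arrays only, and Ttr, Kcne2 and Calml4 on 6. None of them was so in prefrontal cortex, and the fit used those dim signals as measured. Markers of microglia (5 of 9 lower), endothelial and mural cells (8 of 12 lower), meninges (7 of 12 lower, 1 higher) and blood (3 of 3 lower) went the other way. In bulk tissue, more cells of a type and more RNA per cell cannot be told apart, and the part of these cell types in the members' differences was not tested.

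The carnitine shuttle holds the entry step. Cpt2, the inner-membrane carnitine palmitoyltransferase that hands the acyl chain back to CoA, was at 0.81, 0.80 and 0.83 in amygdala, 1.93, 1.83 and 1.99 in hypothalamus, and 0.64, 0.64 and 0.71 in prefrontal cortex. The 3 hypothalamic arrays were all above the other 6, and within a region the diets lay within 0.16 of each other. Hypothalamus exceeded prefrontal cortex by 1.25 (SE 0.09, 2.38-fold, adjusted p = 4.6e-05) and was above amygdala as well (amygdala minus hypothalamus -1.1, SE 0.09, adjusted p = 0.00026), and both calls held in 20 of 20 alternative fits.

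Cpt1a, the outer-membrane isoform that is found in most tissues and is blocked by malonyl-CoA, was at -0.22, -0.20 and 0.07 in amygdala, 0.12, -0.01 and 0.49 in hypothalamus and -0.02, -0.20 and 0.21 in prefrontal cortex. On the probe used, the CR array was the highest in every region. Its region difference passed the threshold only in amygdala against hypothalamus (-0.31, SE 0.10, adjusted p = 0.048), with adjusted p of 0.037 to 0.30 over the alternatives and the call kept in 4 of 20. The regions overlapped.

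Cpt1b, the muscle isoform, was at -2.03, -1.99 and -2.69 in amygdala, -2.87, -2.50 and -2.59 in hypothalamus and -3.60, -3.01 and -3.52 in prefrontal cortex. All amygdala and hypothalamus arrays were above the prefrontal cortex arrays, by 1.14 (SE 0.19, adjusted p = 0.0056) and 0.72 (SE 0.19, adjusted p = 0.017). A dimmer probe of the gene was well above background on 6 arrays. Cpt1c, the brain isoform located in the endoplasmic reticulum, was at 1.82, 2.19 and 2.36, at 1.98, 1.91 and 1.45, and at 1.97, 1.87 and 1.70 in amygdala, hypothalamus and prefrontal cortex. No region difference of Cpt1c was called (differences of 0.35, 0.28 and -0.07). Slc25a20, the carnitine-acylcarnitine carrier of the inner membrane, had its lowest value on the AD amygdala array (-2.40) and lay between -1.71 and -1.19 on the other 8.

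**Figure D2:**
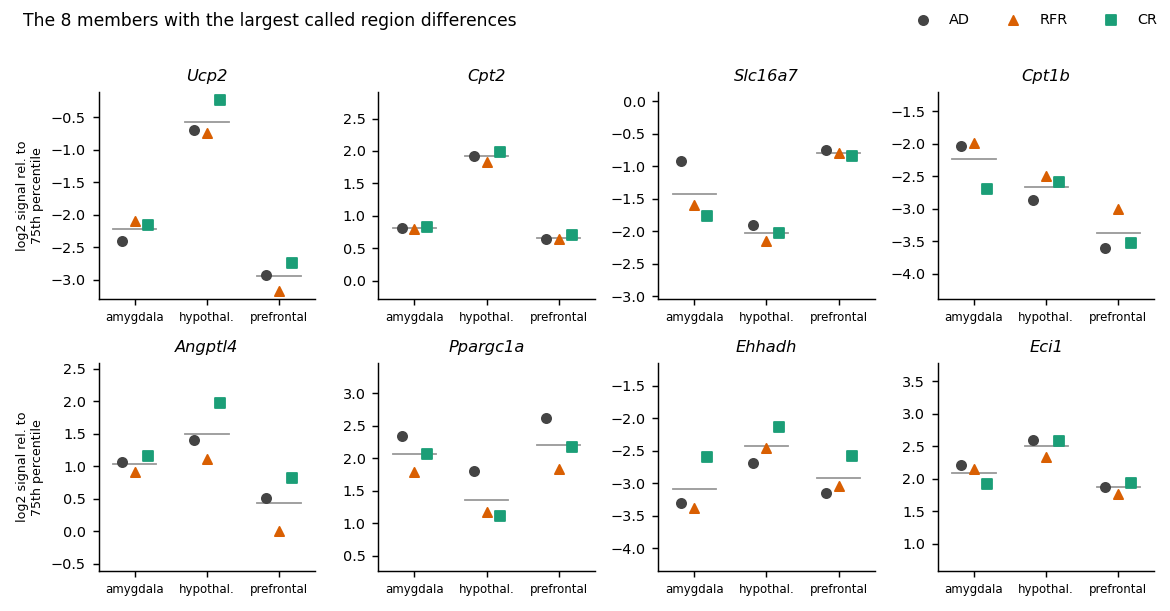
Log2 signal relative to the 75th percentile on each of the 9 arrays for the 8 members with the largest called region difference; symbols are diets (1 array each), grey lines are the mean of the 3 arrays of a region, and every panel spans 3.2 log2 units. Ucp2 and Cpt2 separate hypothalamus from the other regions on every diet, and the AD array is the highest of its region for Ppargc1a.

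Promoter sequence was taken from RefSeq (GRCm38.p6), which held an entry for 25 of the 32 members. Acat1, Acaa2, Decr1, Ppargc1b, Cpt1b, Slc16a7 and Angptl4 had none. Each window covers 250 bases before and 50 bases after the gene's start. Motifs were searched on both strands. The GC box GGGCGG, bound by Sp1-type factors, was in 19 of 25 member windows (76.0%) and in 35.7% of all 32851 windows. All windows means every entry held, not only those of the 16358 genes measured, while each member has 1 window. The shares thus compare unlike sets. The members' windows had a median GC content of 60.7%, against 52.7% over all. The TATA box letters TATAAA were in 0 of 25 and in 13.6% of all. The core letters of nuclear receptor sites, AGGTCA, were in 4 (Cpt1a, Cpt1c, Acadm and Acadvl; 16.0% against 16.3%). A direct repeat of those letters with 1 base between, the arrangement PPAR and RXR pairs bind, was in 0 of 25 and in 0.0396% of all. The E-box CACGTG was in 1, Slc16a1 (4.0% against 7.15%). These are matches of letters, and Ppar binding was not measured.

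The 250 bases upstream of Cpt2 (chr4:107923590-107923839, minus strand) are shown because Cpt2 had the largest region difference among the oxidation enzymes. Those of Cpt1a (chr19:3323051-3323300, plus strand) are shown because its probe used was highest on the CR array of every region. Both stretches are given 5′ to 3′ on the gene's strand. Capitals mark GGGCGG in Cpt2 and AGGTCA, here as its reverse complement, in Cpt1a.
Cpt2: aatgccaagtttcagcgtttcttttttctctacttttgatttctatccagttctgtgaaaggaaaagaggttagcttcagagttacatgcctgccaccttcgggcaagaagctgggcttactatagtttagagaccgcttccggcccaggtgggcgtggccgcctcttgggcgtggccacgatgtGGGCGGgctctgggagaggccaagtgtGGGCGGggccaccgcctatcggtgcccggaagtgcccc
Cpt1a: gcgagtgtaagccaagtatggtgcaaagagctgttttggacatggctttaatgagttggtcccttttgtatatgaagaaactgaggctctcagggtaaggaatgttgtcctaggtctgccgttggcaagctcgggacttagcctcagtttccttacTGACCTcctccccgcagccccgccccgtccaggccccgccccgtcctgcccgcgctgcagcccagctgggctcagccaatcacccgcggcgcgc
Cpt2 holds the GC box at -65 and -38 from the start on its own strand. Cpt1a holds the AGGTCA letters once, beginning at -94 from the start.

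The acyl-CoA dehydrogenases open each turn of the cycle and differ in the chain length they take. All 4 had a higher mean in hypothalamus than in prefrontal cortex, beside 54.2% of all genes. The threshold was passed by 2, beside 26.7% of all genes called higher. Acadvl, for very long chains, ranged from 4.03 to 4.32 in hypothalamus and from 3.48 to 3.79 over the 6 arrays of the other regions, with no overlap. Its difference was 0.56 against prefrontal cortex (SE 0.09, adjusted p = 0.0021). Acadm, for medium chains, was at 2.44, 2.57 and 2.34 in amygdala, 2.87, 2.7 and 2.73 in hypothalamus and 2.54, 2.46 and 2.38 in prefrontal cortex. The hypothalamic arrays were again the highest, by 0.31 over prefrontal cortex (SE 0.10, adjusted p = 0.039, called in 8 of 20 alternatives). Acadl, for long chains, differed by 0.33 (adjusted p = 0.068).

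Acads, for short chains, was the least even member. It was at -2.59, -0.53 and -1.70 in amygdala, -1.32, -1.41 and -1.48 in hypothalamus and -1.96, -2.15 and -2.21 in prefrontal cortex. In amygdala the 3 diets spread over 2.07 log2 units, with the RFR array the highest and the AD array the lowest of all 9, while in the other regions they lay within 0.25. No region difference of Acads was called (SE 0.41). The value rests on a single probe printed once per array.

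Acadm carries the AGGTCA letters once in its window, as the reverse complement at the far end, beginning at -249 from the start. The 250 upstream bases (chr3:153944644-153944893, minus strand), with those letters in capitals, are shown as the farthest placed of the matches printed.
Acadm: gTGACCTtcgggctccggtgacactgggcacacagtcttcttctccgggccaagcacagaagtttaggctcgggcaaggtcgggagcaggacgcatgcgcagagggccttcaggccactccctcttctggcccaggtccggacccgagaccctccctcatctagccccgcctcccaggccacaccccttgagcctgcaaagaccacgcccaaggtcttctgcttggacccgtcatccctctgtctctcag

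Hadha and Hadhb encode the alpha and beta subunits of the mitochondrial trifunctional protein, which carries out the later steps for long chains. Hadha was at -0.74, -0.81 and -0.62 in amygdala, -0.37, -0.52 and -0.60 in hypothalamus and -0.70, -0.98 and -1.07 in prefrontal cortex. Hadhb ranged from 2.54 to 2.72, from 3.01 to 3.18 and from 2.59 to 2.80 in the same regions. Hypothalamus was above prefrontal cortex by nearly the same amount for both subunits, 0.41 for Hadha (SE 0.12, adjusted p = 0.024) and 0.40 for Hadhb (SE 0.10, adjusted p = 0.018). Against amygdala the difference was called for Hadhb (amygdala minus hypothalamus -0.46, adjusted p = 0.016) and not for Hadha (-0.22, adjusted p = 0.20). Of the other later-step genes, Hadh (hydroxyacyl-CoA dehydrogenase, 0.25) and Acaa2 (a mitochondrial thiolase, 0.40) missed the threshold in hypothalamus against prefrontal cortex, with adjusted p of 0.071 and 0.05.

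The 2 subunit genes lie head to head on chromosome 5, with starts 273 bases apart (Hadha at 30154980 on the minus strand, Hadhb at 30155253 on the plus strand), so their promoter windows share 228 bases. The stretch upstream of Hadhb (chr5:30155003-30155252, plus strand) is shown because it holds nearly all of the 272 bases between both starts. GGGCGG is in capitals.
Hadhb: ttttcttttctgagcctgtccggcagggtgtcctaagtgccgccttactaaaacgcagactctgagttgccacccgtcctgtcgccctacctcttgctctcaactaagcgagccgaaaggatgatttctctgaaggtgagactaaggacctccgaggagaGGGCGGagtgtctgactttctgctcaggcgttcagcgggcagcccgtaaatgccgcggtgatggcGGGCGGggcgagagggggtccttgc
The GC box occurs at -90 and -25 from the Hadhb start.

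The auxiliary enzymes deal with double bonds or work in peroxisomes. In hypothalamus against prefrontal cortex, 4 of 5 were called higher, beside 26.7% of all genes. Eci1, an enoyl-CoA isomerase, was at 2.21, 2.15 and 1.92 in amygdala, 2.59, 2.33 and 2.58 in hypothalamus and 1.88, 1.77 and 1.94 in prefrontal cortex. The hypothalamic arrays exceeded all others, by 0.63 over prefrontal cortex (SE 0.12, adjusted p = 0.0045, called in 20 of 20 alternatives). Eci2, its peroxisomal relative, differed by 0.53 (adjusted p = 0.015) and Acaa1a, a peroxisomal thiolase, by 0.34 (adjusted p = 0.023).

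Ehhadh, the peroxisomal bifunctional enzyme and a classical PPARalpha target, was at -3.30, -3.38 and -2.60 in amygdala, -2.69, -2.46 and -2.13 in hypothalamus and -3.16, -3.04 and -2.59 in prefrontal cortex. The regions overlapped across diets, since the CR array was the highest of each region, but within every diet hypothalamus was the highest. It exceeded prefrontal cortex by 0.50 (SE 0.11, adjusted p = 0.0091) and amygdala by 0.67 (amygdala minus hypothalamus -0.67, SE 0.11, adjusted p = 0.0051). Decr1, the mitochondrial dienoyl-CoA reductase, showed no called region difference (0.23, 0.01 and -0.22).

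Of the electron transfer genes, which pass electrons from the dehydrogenases to the respiratory chain, Etfb was called in hypothalamus against prefrontal cortex (0.57, SE 0.14, adjusted p = 0.014). Etfa (0.31) and Etfdh (0.22) lay in the same direction and were not called. On the CR amygdala array Etfa was at 1.04 and Etfb at 3.71, each the lowest of the 9 arrays.

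The 3 enzymes of ketone use did not move together between regions. Bdh1, which oxidises beta-hydroxybutyrate, was at 3.56, 3.66 and 3.49 in amygdala, 3.74, 3.78 and 3.85 in hypothalamus and 4.03, 4.04 and 4.12 in prefrontal cortex. The order amygdala, hypothalamus, prefrontal cortex held without overlap. The largest step, amygdala minus prefrontal cortex, was -0.49 (SE 0.10, adjusted p = 0.012). The other steps, -0.27 and -0.22, were not called (adjusted p = 0.054 and 0.14).

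Oxct1, the CoA transferase that commits acetoacetate to oxidation, was at 5.72, 5.33 and 5.50 in amygdala, 5.17, 4.88 and 4.79 in hypothalamus and 5.76, 5.49 and 5.40 in prefrontal cortex. The hypothalamic arrays were the 3 lowest, by 0.60 against prefrontal cortex (hypothalamus minus prefrontal cortex -0.60, SE 0.10, adjusted p = 0.0022). The other 2 probes of Oxct1 both gave -0.58. Acat1, the acetoacetyl-CoA thiolase that ends the route, was at 3.14, 2.87 and 2.81, at 3.27, 3.21 and 3.18, and at 2.85, 2.88 and 2.76, and was higher in hypothalamus than in prefrontal cortex by 0.39 (SE 0.10, adjusted p = 0.017). Oxct1 and Acat1, which act in succession, thus had opposite region differences.

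The ketone carriers also differed. Slc16a7 (MCT2), the monocarboxylate transporter of neurons, was at -0.92, -1.59 and -1.77 in amygdala, -1.91, -2.15 and -2.03 in hypothalamus and -0.75, -0.79 and -0.84 in prefrontal cortex. The 3 regions did not overlap, and each pair was called: -1.23 for hypothalamus minus prefrontal cortex (SE 0.17, 2.35-fold, adjusted p = 0.00093), -0.63 for amygdala minus prefrontal cortex (adjusted p = 0.035) and 0.60 for amygdala minus hypothalamus (adjusted p = 0.034). The first held in 20 of 20 alternatives, the others in 10 and 11. Slc16a1 (MCT1), the transporter of endothelium and glia, was at 1.94, 1.19 and 1.79, at 1.93, 1.79 and 2.22, and at 1.51, 1.63 and 1.93, with no called region difference (-0.34, -0.05 and 0.29).

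**Figure D3:**
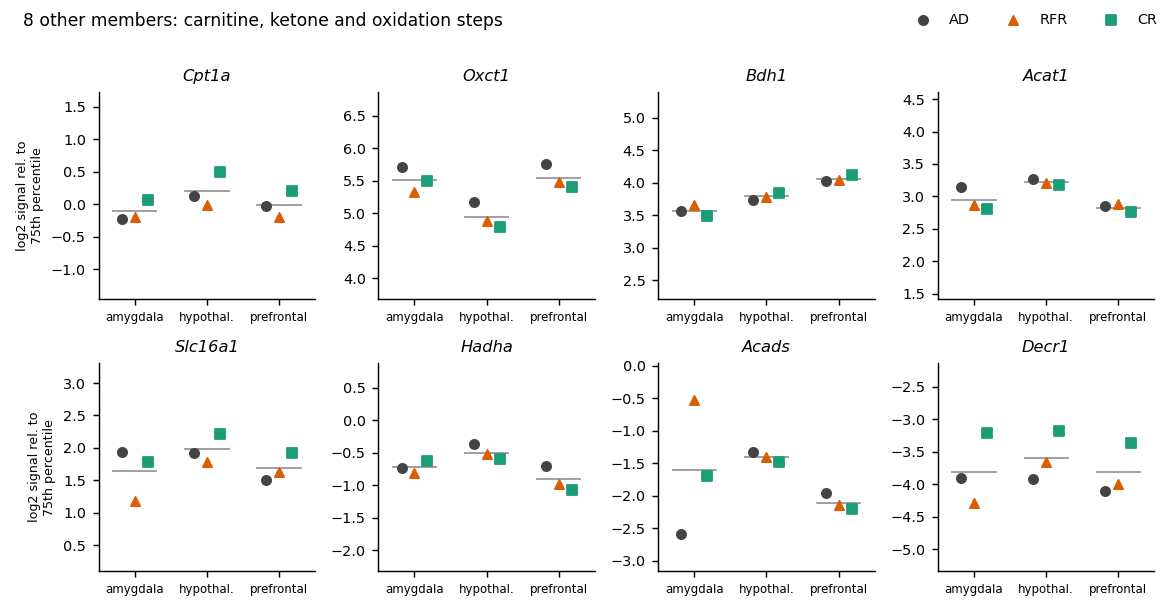
Log2 signal relative to the 75th percentile on each array for 8 further members, drawn as in the plot of the members with the largest region differences. Oxct1 is lowest in hypothalamus and highest on the AD array of each region, Acads spreads over 2.07 units in amygdala, and the CR arrays of Decr1 lie between -3.36 and -3.18.

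Among regulators and PPAR targets, Ucp2 had the largest region difference of any member. Ucp2 encodes a mitochondrial carrier of the uncoupling protein family that is tied to fatty acid use in hypothalamic neurons. It was at -2.40, -2.10 and -2.16 in amygdala, -0.70, -0.75 and -0.24 in hypothalamus and -2.93, -3.17 and -2.75 in prefrontal cortex. The regions were fully separated. Hypothalamus was 2.39 above prefrontal cortex (SE 0.14, 5.23-fold, adjusted p = 2.1e-05), amygdala 1.66 below hypothalamus (-1.66, SE 0.14, adjusted p = 0.00031) and 0.73 above prefrontal cortex (adjusted p = 0.011). Of its other probes, 1 was well above background on 4 arrays and 1 on none, and neither gives a measured difference from prefrontal cortex.

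The 250 bases upstream of Ucp2 (chr7:100493108-100493357, plus strand) are shown for the member with the widest region difference. Capitals mark the single GC box, as its reverse complement, beginning at -79 from the start.
Ucp2: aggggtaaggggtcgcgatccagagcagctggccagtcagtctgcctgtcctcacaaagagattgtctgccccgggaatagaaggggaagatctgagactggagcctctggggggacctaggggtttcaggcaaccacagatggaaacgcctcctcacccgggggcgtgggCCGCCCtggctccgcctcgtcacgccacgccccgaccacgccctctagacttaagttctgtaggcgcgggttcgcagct

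Angptl4, a secreted inhibitor of lipoprotein lipase and a fasting-induced PPAR target, was at 1.07, 0.91 and 1.16 in amygdala, 1.40, 1.11 and 1.97 in hypothalamus and 0.51, -0.00 and 0.82 in prefrontal cortex. The CR array was the highest and the RFR array the lowest in each region. Angptl4 was higher in hypothalamus (1.05, SE 0.14, adjusted p = 0.00095) and in amygdala (0.60, SE 0.14, adjusted p = 0.024) than in prefrontal cortex. Ppara itself was at -2.3, -2.31 and -2.12, at -2.59, -2.73 and -2.57, and at -2.00, -2.25 and -2.32. Its hypothalamic arrays were the 3 lowest, with -0.44 against prefrontal cortex (SE 0.12, adjusted p = 0.018).

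Ppargc1a (PGC-1alpha), the coactivator of mitochondrial genes, was at 2.35, 1.79 and 2.07 in amygdala, 1.80, 1.18 and 1.11 in hypothalamus and 2.62, 1.83 and 2.17 in prefrontal cortex. Within each diet hypothalamus was the lowest, by 0.84 against prefrontal cortex (-0.84, SE 0.12, adjusted p = 0.0012, called in 20 of 20 alternatives) and with amygdala 0.71 above it (SE 0.12, adjusted p = 0.0052). Ppargc1b, its relative, was called in amygdala minus hypothalamus (0.36, adjusted p = 0.038). In hypothalamus against prefrontal cortex it lay at -0.28 (adjusted p = 0.061).

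The feeding regimens were then compared over the 3 regions. No member passed the threshold: 0 of 31 in the limma fit of CR against AD, RFR against AD and CR against RFR, where, in that order, 0.0%, 0.0158% and 0.0158% of all genes were called. The 2 genes called for RFR, in both of its contrasts, were Prl and Gh. At an unadjusted p below 0.05 in that fit there were 8 of 31 members for CR against AD, beside 2084 of all genes (16.5%). There were 8 for CR against RFR (1866 of all genes, 14.8%) and 2 for RFR against AD (777, 6.16%). The 3 regions of a diet share their mice, so these p-values are too small. The members' median differences were -0.01, -0.07 and 0.01, beside -0.04, -0.03 and -0.01 over all genes. Without the amygdala arrays, CR against AD called 4 members in the limma fit (Decr1, Etfdh, Ehhadh at 0.57 with adjusted p = 0.043, and Oxct1 at -0.37 with adjusted p = 0.049), where 9.75% of all genes were called. Without the AD amygdala array alone it called 1 member, Decr1, beside 4.44% of all genes.

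For Ppargc1a, both restricted diets were below AD in all 3 regions: CR by -0.28, -0.69 and -0.45 and RFR by -0.56, -0.62 and -0.79 in amygdala, hypothalamus and prefrontal cortex. The fitted differences were -0.47 (SE 0.12, unadjusted p = 0.0057, adjusted p = 0.21) and -0.66 (SE 0.12, unadjusted p = 0.00095, adjusted p = 0.47), and neither passed the threshold. The RFR value in prefrontal cortex compares 2 arrays of 1 slide. Over the alternatives the adjusted p lay between 0.059 and 0.80 for CR and between 0.17 and 1.0 for RFR. Ppargc1b lay at -0.23 and -0.18, negative in every region on the probe used. It was at 0.03 (CR) and 0.04 (RFR) in amygdala with normexp and at 0.04 (RFR) in hypothalamus in the authors' deposited table. A second Ppargc1b probe, above background on all 9 arrays, was at 0.01, 0.06 and 0.37 in amygdala, with the AD array the lowest.

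On the probe used, Oxct1 was also below AD on both diets in all regions. CR differed by -0.22, -0.38 and -0.37 and RFR by -0.39, -0.29 and -0.28. The fitted difference was -0.32 for both diets (SE 0.10, adjusted p = 0.23 and 0.70). With quantile scaling the amygdala difference for CR was 0.01, so that sign depends on the scaling. The other probes of Oxct1 gave means over the regions of -0.43 and -0.21 for CR and -0.37 and -0.22 for RFR. In amygdala, however, they were at 3.21, 3.15 and 3.27 and at 3.05, 3.15 and 3.04. There the CR array was above AD on the first of them and the RFR array on the second. Bdh1 moved by at most 0.10 in any region against AD, and Acat1 by -0.33 to 0.03.

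Between CR and RFR no member was called. Angptl4 on the CR array was above RFR by 0.26, 0.87 and 0.82 in amygdala, hypothalamus and prefrontal cortex, with CR above and RFR below AD in each. The fitted difference was 0.65 (SE 0.14, unadjusted p = 0.0028, adjusted p = 0.16). The hypothalamic value compares 2 arrays of 1 slide. Cpt1a was higher in CR than in RFR by 0.27, 0.50 and 0.41 (0.39, SE 0.10, adjusted p = 0.18). Its second probe gave a mean of 0.18, with CR at -3.11 and RFR at -3.03 in hypothalamus and both at -3.18 in prefrontal cortex. Ehhadh was higher by 0.78, 0.34 and 0.45 (0.52, SE 0.11, adjusted p = 0.16), and by 0.28 with normexp. Acadvl (-0.26), Cpt1b (-0.43) and Acaa1a (-0.10) were among the members with a negative difference, and Pdk4, a PPAR target outside the set, lay at -0.01.

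Decr1 was at -3.91, -4.29 and -3.21 in amygdala, -3.92, -3.66 and -3.18 in hypothalamus and -4.10, -3.99 and -3.36 in prefrontal cortex, so CR was above AD by 0.70, 0.74 and 0.74 (0.73, SE 0.14, adjusted p = 0.19). With normexp these differences were 0.25, 0.06 and 0.13, and the fitted one 0.14. For Ehhadh, CR minus AD was 0.61 (SE 0.11, adjusted p = 0.18) and 0.21 with normexp. RFR lay on both sides of AD for Decr1. Acadl (0.35) and Etfdh (0.20) had positive CR minus AD means as well, while Acadvl (-0.27) had a negative one in all 3 regions. Of the 16 enzymes, 8 had a mean above 0 for CR minus AD and 6 for RFR minus AD, beside 42.8% and 42.0% of all genes.

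**Figure D4:**
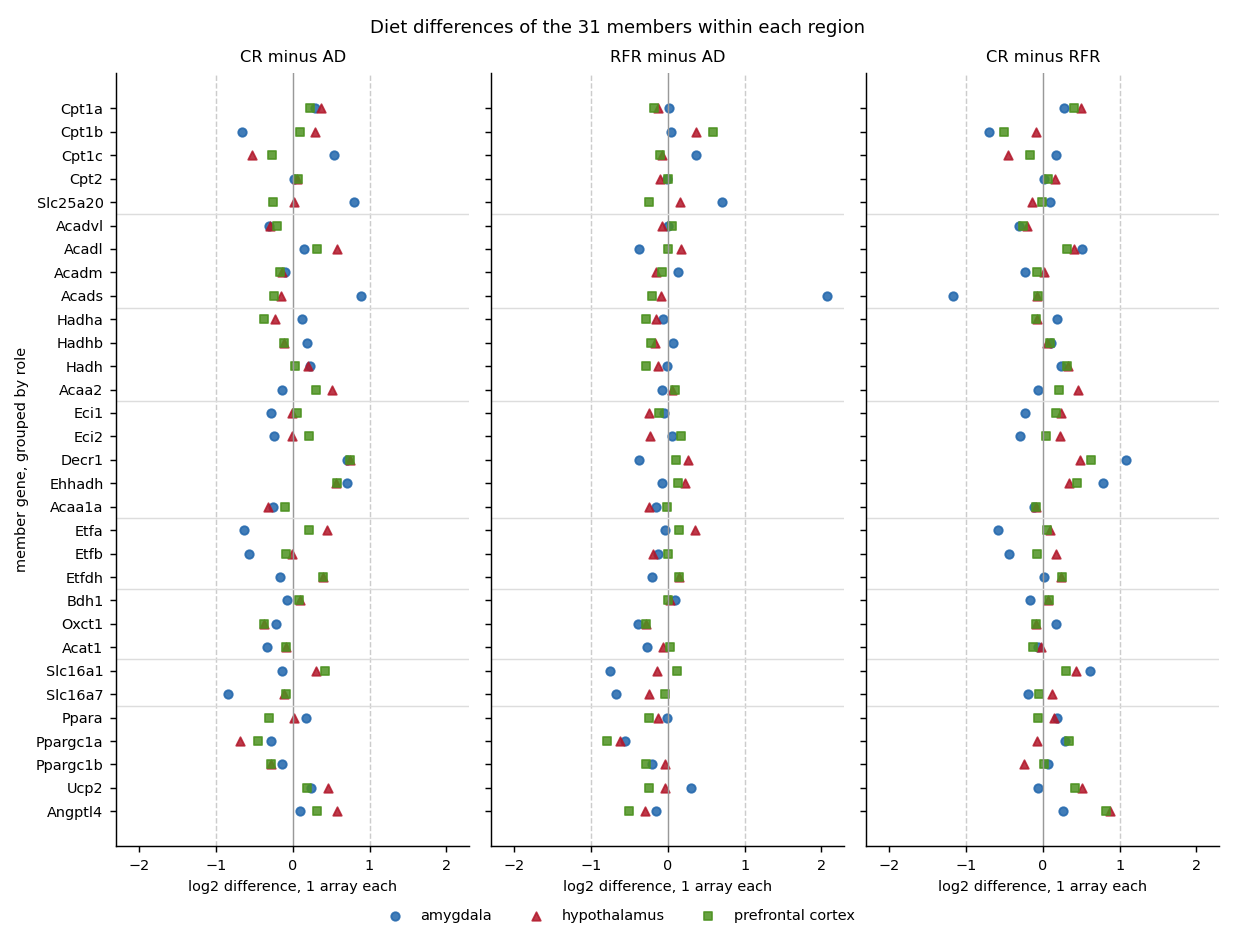
Log2 difference between 2 diets within each region (1 array each, no error available) for the 31 members, grouped by role; dashed lines mark 1 log2 unit. Ppargc1a and Oxct1 lie left of 0 in all regions for both comparisons with AD, Angptl4, Cpt1a and Ehhadh lie right of 0 for CR minus RFR, and Acads in amygdala (2.07 for RFR minus AD) is the farthest point.

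Counted by sign, 8 of 31 members were higher in CR than in AD in all 3 regions (12.3% of all genes) and 9 lower (25.3%). For RFR against AD, 2 members were higher in all regions (10.8%) and 12 lower (16.7%). For CR against RFR, 10 were higher (22.3%) and 5 lower (24.4%). These signs depend on the scaling. In the authors' deposited table, whose scaling constants for the CR arrays are 0.094 to 0.131 larger, the shares of all genes for CR against AD were 25.0% higher and 12.8% lower, with 8 and 6 of 29 members. For RFR against AD they were 17.1% and 10.5% with 2 and 5 members, and for CR against RFR 31.2% and 16.8% with 10 and 2. The median of all genes in amygdala for CR minus AD moved from -0.11 to 0.01 with it.

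Across that table, quantile scaling, normexp background correction and the values used here, 5 members kept the higher sign in all regions for CR against AD (Cpt1a, Acadl, Hadh, Angptl4 and Ehhadh) and 4 the lower sign (Acadvl, Acaa1a, Slc16a7 and Ppargc1a), of 29 members, where 8.58% and 11.3% of all genes did. For RFR against AD, 0 kept the higher sign and 5 the lower (Acaa1a, Oxct1, Slc16a7, Ppargc1a and Angptl4), where 7.17% and 8.38% of all genes did. For CR against RFR, 7 kept the higher sign (Cpt1a, Acadl, Hadh, Slc16a1, Angptl4, Etfdh and Ehhadh) and 1 the lower (Acadvl), where 15.1% and 14.6% of all genes did. Decr1 and Cpt1b had values for 6 of 9 arrays in the authors' deposited table and were left out of these counts, as was Ppard. Only the probe used for each gene is counted. Another probe of Cpt1a, Acaa1a, Oxct1, Slc16a1 and Etfdh, also above background, differed in sign in some regions. The comparisons share the AD arrays, or the CR or RFR arrays, and are not independent of each other.

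Within a region, differences of at least 1 log2 unit between 2 arrays that both stood above background were rare. In amygdala, RFR minus AD had 1 such member (1.47% of all genes), Acads at 2.07. CR minus RFR had 2 (2.16% of all genes), Acads at -1.17 and Decr1 at 1.08. CR minus AD in amygdala had 0 (3.26%). Hypothalamus had 0 for CR minus AD (1.34%), RFR minus AD (0.69%) and CR minus RFR (0.528%). Prefrontal cortex had 0 for CR minus AD (1.13%), RFR minus AD (0.971%) and CR minus RFR (0.819%). No test is possible with 1 array on each side. With normexp, Decr1 for CR minus RFR in amygdala was 0.48. Below 1 log2 unit the largest differences were 0.89 for Acads (CR minus AD, amygdala), 0.87 for Angptl4 (CR minus RFR, hypothalamus) and -0.85 for Slc16a7 (CR minus AD, amygdala).

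Other measures moved with the diets. The choroid plexus list in amygdala summed to 2.77, 4.34 and 3.03 times the 75th percentile for AD, RFR and CR. The meningeal list summed to 9.84, 8.59 and 15.2 in hypothalamus, where all 12 genes were higher in CR than in AD, and to 26.8, 20.0 and 14.7 in prefrontal cortex, where 0 of 12 were. The blood list was lowest on the RFR array of each region (5.12 against 11 for AD in amygdala, 2.54 against 7.65 in hypothalamus, 15.1 against 20.0 in prefrontal cortex). The oligodendrocyte list was lowest on the RFR array and highest on the CR array of each region (87.0 and 131 in amygdala, 139 and 188 in hypothalamus, 58.0 and 89.8 in prefrontal cortex), the order also seen for Angptl4. The AD arrays lay on slide 1, together with the RFR prefrontal cortex array, the CR amygdala array alone on slide 3 and the other 4 on slide 2, so no slide held both a CR and an AD array. The part of these measures in the members' diet differences was not tested.

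The 8 lists of related genes were read in the same way. Of 101 fitted related genes outside the set, 33 were higher and 20 lower in hypothalamus than in prefrontal cortex (26.7% and 21.3% of all genes). Their median difference was 0.14, beside 0.06 for all genes. For amygdala against prefrontal cortex 18 were higher and 11 lower (12.1% and 10.2% of all genes). For amygdala against hypothalamus 10 were higher and 19 lower (13.5% and 15.9%). None of these related genes was called in a diet contrast in the limma fit. The same 26.7% and 21.3% of all genes stand beside the hypothalamus counts of each list below, and several lists are near them.

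Of 8 genes of carnitine supply and malonyl-CoA, 4 were higher and 1 lower in hypothalamus than in prefrontal cortex. Bbox1, the last enzyme of carnitine synthesis, was at -0.14, -0.49 and -0.01 in hypothalamus and -2.7, -2.73 and -2.59 in amygdala. It was not well above background on any prefrontal cortex array, so hypothalamus was at least 31.9-fold and amygdala at least 5.79-fold higher than the bound there. The limma fit used the dim signals as measured, not the bound (adjusted p = 2.8e-05 and 0.0014). Aldh9a1, another enzyme of that route, differed by 1.22 (SE 0.10, adjusted p = 7.1e-05), and the carnitine importer Slc22a5 by 0.79 (adjusted p = 0.00055).

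Fatty acid uptake and activation was split, with 3 of 13 higher and 3 lower in hypothalamus against prefrontal cortex. Cd36, a fatty acid translocase, was above background in amygdala and hypothalamus and on no prefrontal cortex array, at least 3.36-fold and 2.96-fold higher than the bound there. Here too the limma fit used the dim signals as measured (adjusted p = 2.6e-05 and 7.5e-06). Fabp7, the fatty acid binding protein of astroglia, was higher in hypothalamus by 1.44 (adjusted p = 0.00027). Acsl5, an acyl-CoA synthetase, was lower (-1.42, adjusted p = 3e-05).

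Of 11 genes of lipolysis and lipid stores, 8 were higher and 2 lower in hypothalamus than in prefrontal cortex. Plin5, which tethers droplets to mitochondria, was at 0.01, -0.47 and -0.33 in hypothalamus and between -2.88 and -1.96 on the other 6 arrays (2.52, SE 0.18, adjusted p = 5.2e-05). Mgll, the monoacylglycerol lipase that also degrades an endocannabinoid, was lower (-2.58, adjusted p = 5.3e-06), as was Lpl, lipoprotein lipase, the enzyme that Angptl4 inhibits (-2.07, SE 0.26, adjusted p = 0.00066).

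Of the ketone synthesis list, 1 of 7 was higher and 2 lower in hypothalamus against prefrontal cortex. Bdh2, a cytosolic short-chain dehydrogenase, was higher in hypothalamus by 3.0 (SE 0.12, adjusted p = 4.4e-06). Slc16a6, a monocarboxylate transporter, was lower (-0.65, adjusted p = 0.01).

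Among the other mitochondrial steps, 6 of 19 were higher and 1 lower in hypothalamus than in prefrontal cortex, among them Ivd (0.94) and Acadsb (0.62) of branched-chain amino acid breakdown and the thioesterase Acot1 (0.70, SE 0.14, adjusted p = 0.0062). In the peroxisomal list 4 of 16 were higher and 1 lower. That one, the transporter Abcd2, had the largest difference (-1.78, adjusted p = 0.00029). Phyh, the first enzyme of phytanic acid breakdown, was called in amygdala minus hypothalamus (-0.52, adjusted p = 0.011). Hacl1, which acts later in that route, was well above background on 2 arrays each of amygdala and hypothalamus and on 0 of prefrontal cortex. It is among the 4 counted as higher, and the limma fit used its dim signals as measured.

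The nuclear receptor list had 6 of 21 higher and 7 lower in hypothalamus against prefrontal cortex. Pparg was at 0.03, 0.34 and 0.03 in prefrontal cortex and at -1.84 or below elsewhere (-2.87, SE 0.16, adjusted p = 1.7e-05). Rxrg, a partner receptor, was higher in amygdala than in prefrontal cortex by 2.54 (adjusted p = 0.00032). Pdk4, the fasting-induced kinase that blocks pyruvate oxidation and a PPAR target, was at -0.79, -0.95 and -1.04 in amygdala, -0.64, -1.17 and -1.04 in hypothalamus and -0.33, -0.52 and -0.60 in prefrontal cortex. The AD array was the highest of each region, with fitted differences of -0.30 for CR (adjusted p = 0.26) and -0.29 for RFR (adjusted p = 0.74). Hypothalamus was lower than prefrontal cortex by 0.47 (-0.47, SE 0.11, adjusted p = 0.011). Of the other monocarboxylate carriers and their partners, 2 of 8 were higher and 3 lower. Emb, a chaperone of MCT2, was higher in hypothalamus by 0.80 (adjusted p = 0.00047) where Slc16a7 itself was lower, and Slc16a9 was higher by 0.79 (adjusted p = 0.017).

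**Figure D5:**
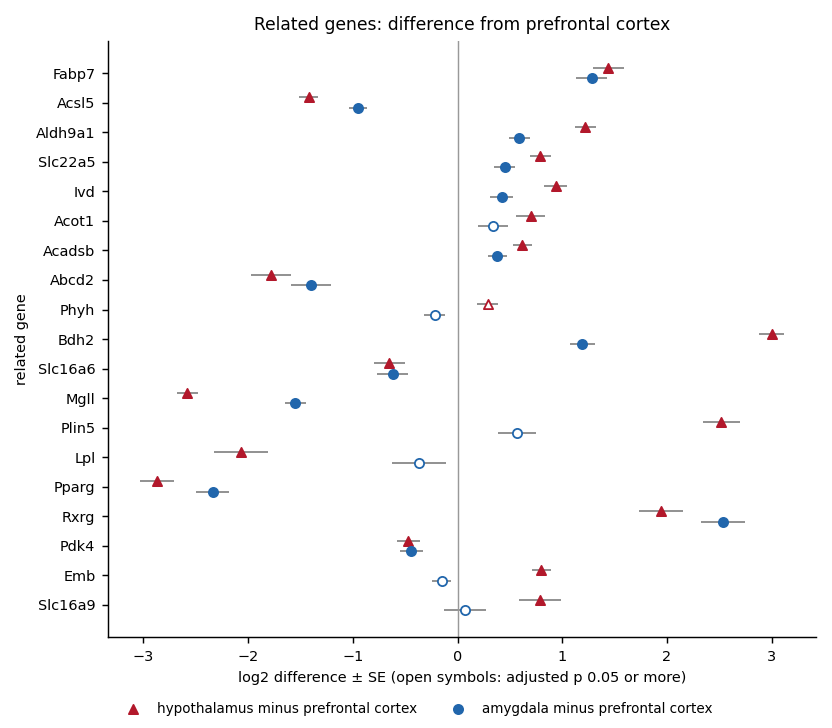
Log2 difference from prefrontal cortex for related genes outside the set (triangles hypothalamus, circles amygdala), with the standard error of the fit; filled symbols passed an adjusted p of 0.05. Bdh2 (3.0) and Plin5 (2.52) lie farthest right for hypothalamus, Pparg (-2.87) and Mgll (-2.58) farthest left; Bbox1, Cd36 and Hacl1 are left out because no prefrontal cortex array showed them above background.

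Limits of the region calls follow from 1 array per region and diet. Without the RFR pool the counts of members called fell from 18, 13 and 5 to 8, 2 and 0 for hypothalamus against prefrontal cortex, amygdala against hypothalamus and amygdala against prefrontal cortex, at 2 residual degrees of freedom. Where a member had another probe above background on all arrays (10 such probes), the sign was shared in 10, 8 and 10 of 10 for amygdala against hypothalamus, amygdala against prefrontal cortex and hypothalamus against prefrontal cortex, and in 9, 10 and 7 for CR against AD, RFR against AD and CR against RFR.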

How the data were processed

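Signals were read with Agilent Feature Extraction 9.5.1.1, protocol GE1-v5_95_Feb07, per the file headers. The deposited signal used is an intensity from which the scanner software had removed background and spatial trend, with no scaling between arrays; the deposited quality columns hold other values, flags of 0 or 1. A second table deposited by the authors gives each value as a ratio to the AD array of the same region; 99.3% to 99.4% of its values lay within 0.01 log2 units of the scanner ratio after 1 constant per array, and how those constants were chosen is not given in the sources used here.

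Here, log2 processed signal was taken relative to the array's 75th percentile, spots marked as outliers were dropped and the remaining ones averaged per probe. The number of arrays limits the precision. Of 41174 probes, 22951 carried an accession with a symbol in a mouse gene table (GRCm38.p6, used for names), 18223 did not and 0 had several. A gene was represented by its probe with the highest mean, and gene names are those of that table. A gene was fitted (limma 3.58.1, R 4.3.3; region plus diet, 4 residual degrees of freedom) if 3 or more arrays showed it well above background and 6 or more gave a value; the fit was tested on simulated data. Within a region there is no test. For a gene that no array of a region shows above background, the bound is the mean, over its arrays, of its own signal or, if larger, the lowest signal of any probe that passed the background test. Marker lists were summed as linear signal over genes above background on at least 3 arrays and with a value on all 9.

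Values on all arrays are given for the 8 members with the largest called region difference, members at 1 log2 unit or more within a region, any member called for a diet (none was) and 12 listed genes; of related lists, up to 3 called genes with the largest difference, with Pdk4 and Acot1; some genes that this rule names are not reported here. Other values were picked after they were seen. Members and lists were chosen with earlier results of these data known. The alternatives changed background correction (normexp with an offset of 50, planned on raw spot signals and run on the median spot signals), scaling, source, filter, probe, variance model and slide, or left out arrays. The direction counts under each scaling were added after seeing the data. Python 3.11.15 with pandas 2.3.3 and numpy 2.4.6 was used for the rest.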

Additional observations from a re-analysis of the deposited data

Results flagged for a closer look

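Cpt1c, the carnitine palmitoyltransferase isoform of brain, differed between CR and AD in opposite directions in 2 regions, by 0.54 log2 units in amygdala and by -0.53 in hypothalamus. A second probe of the gene, above background on all 9 arrays, had the same directions. Each value compares 1 array with 1 array of another slide, and the difference between the regions was not tested.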

How the results depend on the processing

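The region comparisons are paired by pool, since diet, which stands for the pool, is a term of the fit. For diets, no paired analysis was possible because each pool of mice received 1 diet; region is a term there. Leaving out a pool, a region or a single array gave 8 to 26 called members for hypothalamus against prefrontal cortex (18 with all arrays), 2 to 15 for amygdala against hypothalamus (13), 0 to 6 for amygdala against prefrontal cortex (5), 0 to 4 for CR against AD (0), and 0 throughout for RFR against AD and CR against RFR. For hypothalamus against prefrontal cortex, the count was 11 without the AD or the RFR hypothalamus or the AD prefrontal cortex array, 9 without the CR hypothalamus array and 8 without the RFR pool. For amygdala against hypothalamus it was 7 without the AD pool or the RFR hypothalamus, RFR prefrontal cortex or CR prefrontal cortex array, 6 without the AD or the CR hypothalamus array, 5 without the CR pool, 2 without the RFR pool, and 7 with no filter on dim genes. For amygdala against prefrontal cortex it was 3 without the AD pool, the CR pool, the RFR amygdala or the AD prefrontal cortex array, 2 without the CR and 1 without the RFR prefrontal cortex array, 0 without the RFR pool, 3 with normexp and 1 with slide as a fixed term. Fits without an array or pool have 2 or 3 residual degrees of freedom, where the full fit has 4; beyond that the cause was not tested.

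Members at 1 log2 unit or more within amygdala were 1 for CR minus AD in the authors' table and 1 with no filter (0 otherwise), and 1 for CR minus RFR with normexp (2 otherwise). With no filter there was 1 for CR minus AD in hypothalamus and 1 for RFR minus AD in prefrontal cortex, because Ppard, dim on all arrays, then enters. Slc16a7 for CR minus AD turned from -0.36 to 0.19 (adjusted p = 0.76) with slide as a fixed term, and the cause was not tested. The members' median diet difference within a region changes sign between scalings in some comparisons, such as amygdala CR minus AD (-0.10, and 0.04 with quantile scaling). Slide as a random block had a correlation of 0.0238.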
